A study of Mus musculus with 40 samples.

Results

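Fggy, Eps8l1, Sbsn, Capn11, AI506816 and Prss41 are 6 genes whose transcript levels in the mouse hypothalamus varied widely from line to line in a recombinant inbred panel. They were taken by name from the 23955 gene symbols of the deposited count table, because their values in these same libraries had stood out, so their levels are described here without a test. By the SD of log2 CPM (read counts scaled to 1e6 per library) over the lines they ranked 3 (Fggy), 4 (AI506816), 20 (Prss41), 27 (Eps8l1), 30 (Sbsn) and 33 (Capn11) of the 14488 genes with a mean of at least 1 CPM. They are thus 6 of the 33 most variable genes, not the 6 most variable.

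Poly(A) RNA of the hypothalamus of untreated mice was sequenced in 40 libraries, 1 for each strain. Of these strains 36 were BXD lines, inbred descendants of intercrossed C57BL/6J and DBA/2J mice, and the other 4 were C57BL/6J, DBA/2J and the reciprocal F1 hybrids B6D2F1 and D2B6F1. RNA of 3 to 6 hypothalami was pooled for each BXD line, and the labels give neither the sex nor the age of the animals. The labels name no engineered allele or agent in any group. Since no strain was sequenced more than once, variation between animals or libraries of 1 strain was not measured.

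In a BXD line nearly every locus is homozygous for the allele of 1 of the 2 parents, so a gene whose level depends on a single locus takes a low or a high level in each line, while an F1 hybrid carries both alleles. Fggy encodes a carbohydrate kinase of the FGGY family, which phosphorylates sugars such as ribulose. Eps8l1 encodes a relative of EPS8, the adaptor that links receptor tyrosine kinases through Sos1 and Abi1 to Rac and the actin cytoskeleton. Sbsn encodes suprabasin, a secreted protein known from the suprabasal layers of the epidermis. Capn11 encodes a calcium-dependent cysteine protease of the calpain family, and Prss41 encodes a membrane-anchored serine protease, and both are best known from the testis. AI506816 is annotated as a long non-coding RNA.

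The genes lie on 4 chromosomes in the RefSeq annotation of GRCm38.p6: Fggy on 4, AI506816 on 5, Eps8l1 and Sbsn on 7, and Capn11 and Prss41 on 17. The promoters of Fggy, Sbsn, AI506816 and Prss41 are printed because these 4 genes had the widest empty interval between low and high lines. Each runs from 250 bases before to 50 bases after an annotated start, 5′ to 3′ on the gene's strand, from RefSeq on GRCm38.p6, with CG dinucleotides in capitals.
Fggy, first of 2 starts, chr4:95557257-95557556, plus strand: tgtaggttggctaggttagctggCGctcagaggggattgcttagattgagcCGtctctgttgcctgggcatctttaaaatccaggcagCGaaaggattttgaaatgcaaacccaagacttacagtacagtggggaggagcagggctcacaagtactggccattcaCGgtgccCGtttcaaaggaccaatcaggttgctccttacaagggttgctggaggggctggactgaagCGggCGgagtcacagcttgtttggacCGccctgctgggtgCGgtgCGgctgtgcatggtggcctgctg
Sbsn, chr7:30751221-30751520, plus strand: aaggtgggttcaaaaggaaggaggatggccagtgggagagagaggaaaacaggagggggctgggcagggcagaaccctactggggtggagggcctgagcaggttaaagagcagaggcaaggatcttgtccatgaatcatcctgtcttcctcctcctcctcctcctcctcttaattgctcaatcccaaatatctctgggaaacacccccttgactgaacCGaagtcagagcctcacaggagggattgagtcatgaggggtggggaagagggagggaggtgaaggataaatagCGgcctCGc
AI506816, chr5:23712618-23712917, minus strand: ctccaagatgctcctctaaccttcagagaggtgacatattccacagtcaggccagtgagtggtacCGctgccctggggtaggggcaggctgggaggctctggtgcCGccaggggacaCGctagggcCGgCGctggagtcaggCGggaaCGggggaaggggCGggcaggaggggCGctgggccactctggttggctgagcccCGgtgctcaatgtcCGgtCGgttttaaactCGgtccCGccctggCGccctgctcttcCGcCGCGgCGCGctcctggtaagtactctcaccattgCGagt
Prss41, chr17:23844107-23844406, minus strand: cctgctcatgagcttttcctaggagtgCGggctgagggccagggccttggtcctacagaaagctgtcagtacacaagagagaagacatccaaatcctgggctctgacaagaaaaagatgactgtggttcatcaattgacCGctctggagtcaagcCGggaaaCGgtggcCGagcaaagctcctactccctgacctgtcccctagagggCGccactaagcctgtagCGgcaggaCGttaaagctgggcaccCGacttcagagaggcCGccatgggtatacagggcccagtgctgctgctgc
CG dinucleotides numbered 10 in the printed Fggy promoter, 3 in that of Sbsn, 21 in that of AI506816 and 10 in that of Prss41, against a median of 7 over 32851 promoters of the same length. The 4 sequences thus range from a CG-poor promoter in Sbsn, with fewer than most, to a CG-rich one in AI506816, with more than 75.2% of all promoters. The letters TATAAA were not found on either strand in any of the 9 annotated promoters of the 6 genes, and 13.6% of all promoters hold them. GGGCGG or its reverse complement, the letters of a GC box, was found in the printed promoters of Fggy and AI506816 and in 35.7% of all promoters. These sequences are the C57BL/6J reference, so they show neither the DBA/2J allele nor which allele a line carries.

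Library totals were 12.2 M counts in BXD55, the smallest, and 40.4 M in BXD51, the largest, around a median of 23.6 M, and 3 counts, taken as the limit for a library without reads, equalled 0.0733 to 0.248 CPM. Intervals are exact Poisson 95% intervals and cover counting error only. Of 18 markers of hypothalamic neurons 17 reached a mean of 1 CPM, with Pmch, the melanin-concentrating hormone gene, the highest at a mean of 107 CPM, and their summed level was 510 to 1158 CPM over the lines. Markers of other cells were also read: the summed level was 82.6 to 340 CPM for meninges and fibroblasts and 31.3 to 891 CPM for choroid plexus. The position of the parental and F1 libraries touches the results below. It is given against an empty interval that was defined by the lines, so no line could lie inside it. Among the 68 genes in which the lines fell into a low and a high set at least 1 log2 unit apart, DBA/2J lay inside the empty interval in 55, C57BL/6J in 32, B6D2F1 in 60 and D2B6F1 in 58. Every parental difference, hybrid position and count beyond the parental range given below rests on these 4 libraries, taken as labelled, and whether each holds RNA of its named strain alone was not tested.

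To describe the split of the lines, the 36 log2 CPM of a gene were sorted and the widest step between consecutive lines was taken, with at least 6 lines on each side. A step of 1 log2 unit or more was found in 0.469% of the 14488 genes. It was found in 5 of the 6 genes, all but Capn11, which says nothing further since they were chosen on these values.

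Fggy was close to absent in some lines and plainly present in the others. Its level over the 36 lines had a minimum of 0, a median of 14.2 and a maximum of 20.6 CPM, and its log2 CPM had an SD of 3.16, where the median gene had 0.15. In 15 lines it lay between 0 and 1.91 CPM and in 21 lines between 13.1 and 20.6 CPM, with no line in the 2.72 log2 units between. The low lines were not alike. BXD55 and BXD71 had 0 reads, which allows at most 0.248 and 0.133 CPM, and 8 other lines had 1 or 2 reads each. The remaining 5 low lines carried a small but countable amount: BXD43 had 0.409 CPM (11 reads), BXD87 0.727 CPM (19 reads), BXD45 0.886 CPM (19 reads), BXD101 1.01 CPM (31 reads) and BXD32 1.91 CPM (44 reads). The Poisson interval of BXD32, 1.39 to 2.57 CPM, did not overlap that of BXD73, the highest of the first 10 lines at 0.0996 CPM (0.0121 to 0.360). Among the 21 high lines the levels were within 1.58-fold of each other, from BXD100 at 13.1 CPM to BXD50 at 20.6 CPM, yet the intervals of these extremes did not overlap. Fewer cells that express a gene and less of its RNA per cell cannot be told apart in bulk tissue, here or for the genes that follow.

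AI506816, the non-coding RNA, had the widest step of the 6 genes. Its level ran from 0 to 12.2 CPM with a median of 0.12 CPM and an SD of 3.10 on the log2 scale. In 21 lines it lay at 0 to 0.435 CPM, at 0 to 10 reads, and in 15 lines at 9.09 to 12.2 CPM, a step of 4.14 log2 units. BXD45, BXD48, BXD81 and BXD87 had no read. BXD32, with 10 reads, again stood at the top of the low set, and its interval of 0.208 to 0.800 CPM did not reach the high lines. The high lines lay within 1.34-fold of each other, from BXD70 at 9.09 CPM to BXD98 at 12.2 CPM.

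Sbsn split the lines nearly evenly and was never absent. Over the 36 lines its minimum was 0.501 CPM, its median 9.62 CPM and its maximum 14 CPM, with an SD of 1.84 on the log2 scale. In 16 lines it lay between 0.501 CPM (BXD75) and 1.30 CPM (BXD103) and in 20 lines between 8.77 CPM (BXD44) and 14 CPM (BXD67), a step of 2.68 log2 units. The low lines had 10 to 30 reads each, so that all of them were above the limit of a count of 0.

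Prss41 was high in the fewest lines. Over the 36 lines its minimum was 0.0801 CPM, its median 0.267 CPM and its maximum 6.51 CPM, with an SD of 1.97 on the log2 scale. In 26 lines it lay at 0.0801 to 0.408 CPM, at 2 to 11 reads, and in 10 lines (BXD32, BXD44, BXD50, BXD56, BXD64, BXD73, BXD79, BXD87, BXD98 and BXD103) at 4.87 to 6.51 CPM, at 112 to 169 reads. The step was 3.33 log2 units. Among the 10 high lines the intervals of the lowest and the highest overlapped (4.01 to 5.86 against 5.49 to 7.65 CPM), so their order is not resolved at this depth.

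Eps8l1 and Capn11 were graded. Eps8l1 ran from 0.444 to 18.9 CPM with a median of 4.95 CPM and an SD of 1.87 on the log2 scale. In 13 lines it lay at 0.444 to 1.02 CPM, and above a step of 1.05 log2 units the other 23 lines spread over 8.53-fold, from BXD44 at 2.21 CPM to BXD83 at 18.9 CPM. Within these 23 lines BXD55, BXD87, BXD103, BXD73, BXD43, BXD75 and BXD85 lay between 3.47 and 6.92 CPM, and the next line, BXD71, was at 9.25 CPM with an interval that did not overlap that of BXD85.

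Capn11 had the broadest climb with no wide break. Its level ran from 0.808 CPM (BXD89) to 44.9 CPM (BXD71), with a median of 6.54 CPM and an SD of 1.81 on the log2 scale. Its widest step, 0.68 log2 units, lay between 13 lines at 0.808 to 1.57 CPM and 23 lines at 2.56 to 44.9 CPM, a 17.6-fold range within the upper lines. At the top, BXD73 had 29 CPM, BXD103 30.3 CPM, BXD66 32 CPM, BXD85 38.7 CPM and BXD71 44.9 CPM, and the intervals of BXD66, BXD85 and BXD71 did not overlap. In the order of all 40 strains 35 of 39 neighbouring pairs had overlapping intervals for Capn11, and 36 to 38 of 39 did for the other 5 genes, so that sets of strains are resolved here and single ranks mostly are not.

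**Figure D1:**
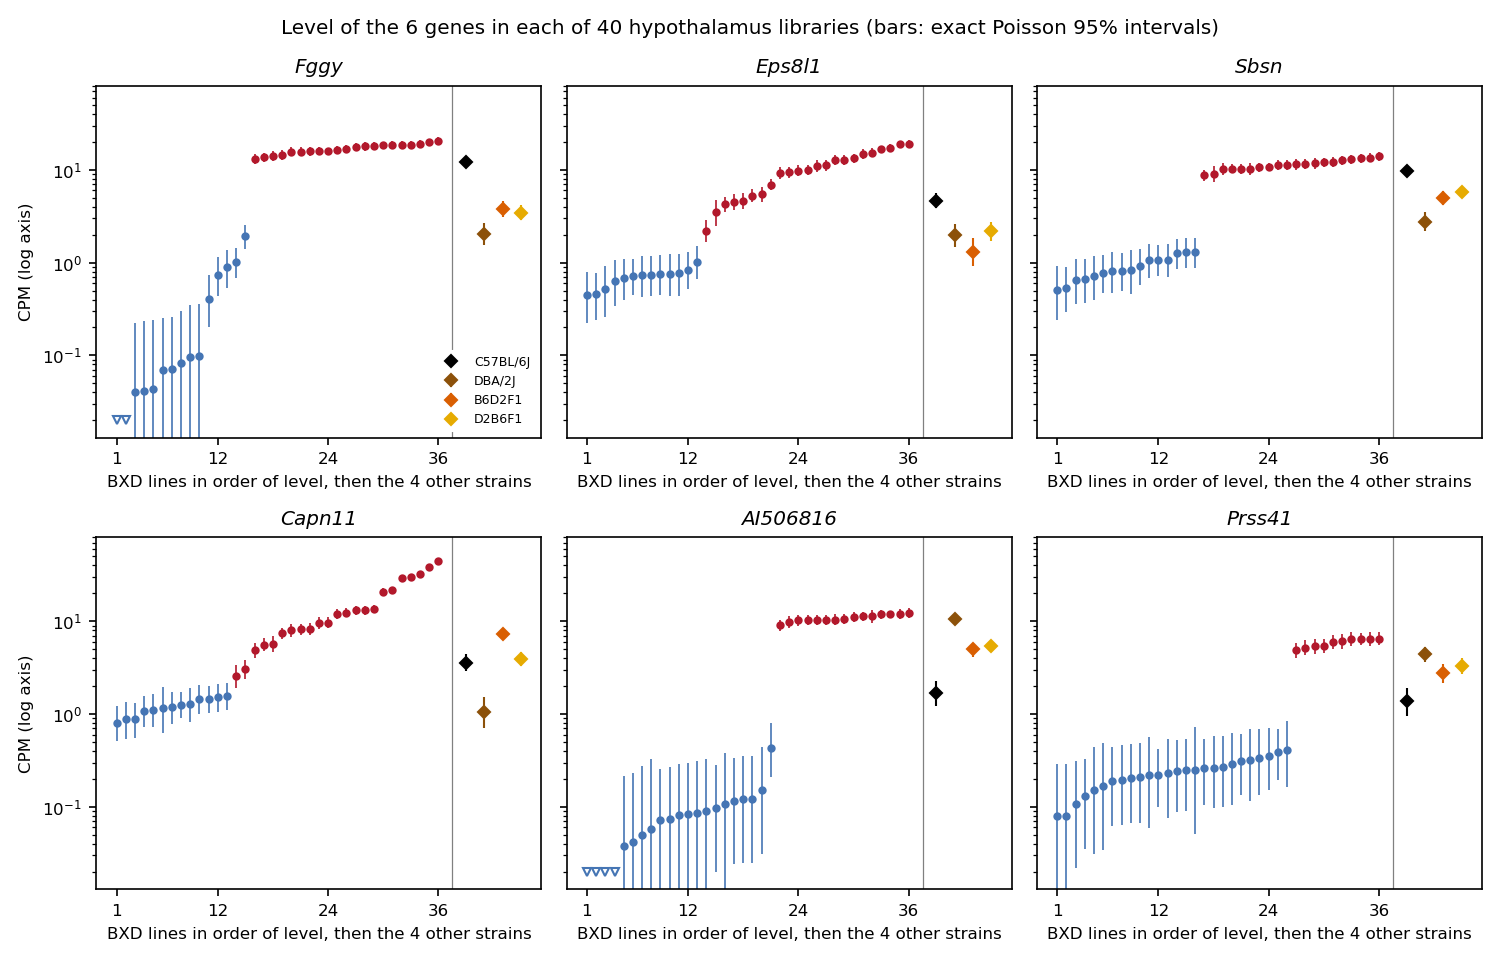
Level of each gene in CPM (log axis) in the 36 BXD lines, ordered by level, and in the 4 other strains to the right of the grey line. Bars are exact Poisson 95% intervals, colours mark the sides of the widest step and open triangles are libraries with 0 reads. Fggy, Sbsn, AI506816 and Prss41 leave an empty interval between the lines, whereas Eps8l1 and Capn11 rise gradually in the upper lines.

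Library depth and the markers of cell types were compared between the low and the high lines of each gene, as ranges only. Library totals of the low and the high lines overlapped for all 6 genes. Markers of keratinocytes, the cells in which Sbsn is best known, summed to 20.1 to 29.7 CPM in the low lines of Sbsn and 21.4 to 34.1 CPM in the high lines. Of the 8 keratinocyte markers measured, 4 reached a mean of 1 CPM, namely Krt1 (9.88), Krt10 (7.60), Lor (4.92) and Trp63 (2.91 CPM), and the summed level was above 0 in every line. Krt5, Krt14 and Ivl, with means of 0.0618, 0.129 and 0.0104 CPM, were near 0. Markers of testis germ cells, where Capn11 and Prss41 are best known, summed to 14.1 to 28.6 CPM in the low and 13.5 to 30.4 CPM in the high lines of Capn11. They summed to 13.5 to 30.4 CPM in the low and 14.8 to 25.8 CPM in the high lines of Prss41. Of these 9 markers 4 reached a mean of 1 CPM, namely Sycp3 (8.24), Ddx4 (5.11), Acr (4.94) and Dazl (1.5 CPM). Ddx4, a germ cell RNA helicase gene, varied with an SD of 1.25 log2 units, at 1.17 to 10.6 CPM in the low and 0.735 to 13.7 CPM in the high lines of Capn11. For Prss41 its ranges were 0.800 to 13.7 and 0.735 to 10.4 CPM. The protamine and transition protein genes Prm1, Prm2, Tnp1 and Tnp2 had means of 0.253, 0.0204, 0.00609 and 0.0999 CPM. All 9 marker lists had overlapping ranges on both sides of the step in all 6 genes. Overlapping ranges can still differ in height. For Prss41 the neuron markers summed to 4435 to 5256 CPM in the low and 4859 to 5816 CPM in the high lines. Markers of ependyma and tanycytes summed to 52.8 to 86.7 CPM in its low and 42.2 to 70.9 CPM in its high lines. Whether depth or any marker list shifted with a gene was not tested.

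The 6 genes did not split the lines alike. Over the 15 pairs of genes, 11 to 22 of the 36 lines lay on the same side in both, with a median of 16. Eps8l1 and Sbsn, both on chromosome 7 with 306 measured genes between them, shared a side in 15 lines. Prss41 and Capn11, both on chromosome 17 with 343 measured genes between them, shared a side in 11 lines. The lines showed 25 different combinations of sides. BXD51 and BXD90 were above the step in 5 genes, all but Prss41, whereas BXD32 was above it in Prss41 alone, BXD45 in Capn11 alone and BXD101 in Sbsn alone.

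**Figure D2:**
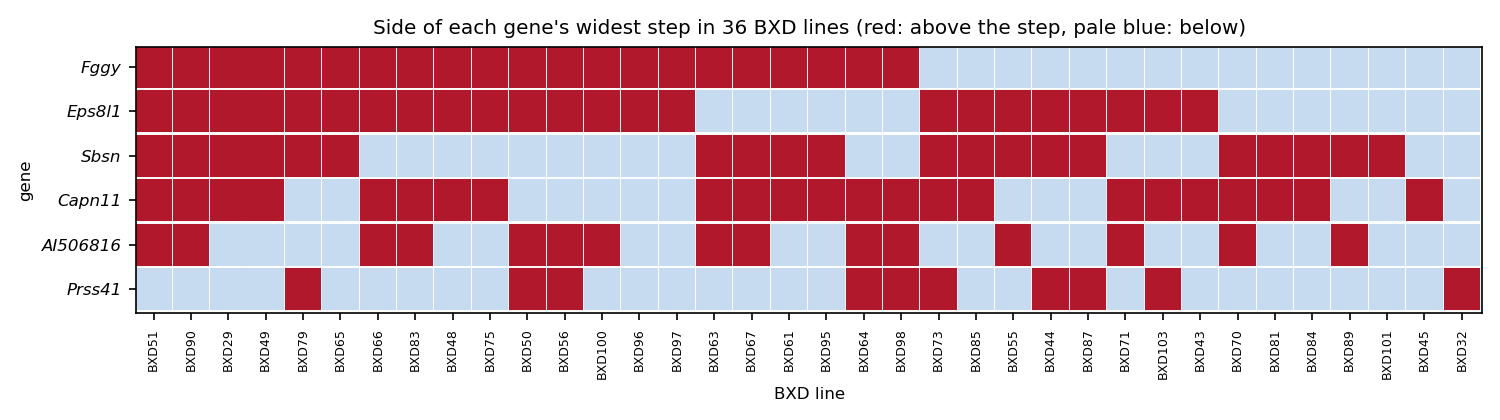
Side of the widest step for the 6 genes (rows) in each of the 36 BXD lines (columns), red above and pale blue below. The rows do not repeat each other, and only BXD51 and BXD90 are red in 5 rows.

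The parental strains were set beside the lines to ask which parent resembled which set. The parents differed by at least 1 log2 unit in 1.22% of the 14488 genes and in all 6 described here, whose choice used these libraries as well. Fggy had 12.1 CPM in C57BL/6J against 2.04 CPM in DBA/2J, a log2 difference of 2.52 with a counting SE of 0.21. Sbsn stood at 9.76 and 2.76 CPM (1.79), Capn11 at 3.59 and 1.06 CPM (1.68) and Eps8l1 at 4.66 and 1.97 CPM (1.21). C57BL/6J was thus higher by at least 1 log2 unit for these 4 genes, as for 0.814% of all genes. AI506816 had 1.70 CPM in C57BL/6J against 10.5 CPM in DBA/2J (-2.57), and Prss41 at 1.38 and 4.43 CPM (-1.62), with DBA/2J higher by at least 1 log2 unit, as for 0.407% of all genes.

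The lower parent had a higher level than every low line in 5 of the 6 genes, beyond counting error for Sbsn, AI506816 and Prss41. DBA/2J, with 54 Fggy reads, was above every low line, but its interval of 1.54 to 2.67 CPM overlapped that of BXD32. C57BL/6J, with 12.1 CPM, was below every high line in Fggy, and its interval of 10.8 to 13.6 CPM overlapped that of BXD100. C57BL/6J had 43 AI506816 reads where no low line had more than 10, and 35 Prss41 reads where no low line had more than 11. DBA/2J had 73 Sbsn reads where no low line had more than 30, and 52 Eps8l1 reads where no low line had more than 26, although its interval for Eps8l1, 1.47 to 2.58 CPM, overlapped that of BXD67 (0.668 to 1.5). Only for Capn11 did the lower parent, DBA/2J at 1.06 CPM, fall among the low lines. Of the 5 genes with a step of at least 1 log2 unit, DBA/2J lay inside the empty interval in 4 and C57BL/6J in 3, against 80.9% and 47.1% of all 68 genes with such a step. Both hybrids lay inside it in all 5, against 88.2% (B6D2F1) and 85.3% (D2B6F1) of the 68. All 4 non-BXD libraries were inside it for Fggy and Prss41, as they were in 33.8% of the 68 genes. This position was therefore common to genes of this kind, and its cause was not tested.

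Measured against the parents, many lines went beyond the parental range. For Fggy 15 lines were below both parents and 21 above both, with none between, and for Prss41 26 were below and 10 above. For AI506816 21 lines were below, 7 between and 8 above, for Sbsn 16, 2 and 18, and for Eps8l1 13, 5 and 18. Capn11 differed in its count, with 3 lines below, 12 between and 21 above both parents, up to 44.9 CPM against 3.59 CPM in C57BL/6J. At least 28 of the 36 lines were outside the parental range in 5 of the 6 genes, and the same held for 52.3% of all genes, most of which have parents close together.

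The hybrids were intermediate for 4 of the 6 genes. Both F1 libraries were between the parents for Fggy, Sbsn, AI506816 and Prss41, as in 21.5% of all genes and in 80.8% of the 177 genes whose parents differed by at least 1 log2 unit. A scale was set with DBA/2J at 0 and C57BL/6J at 1 in CPM. On it B6D2F1 and D2B6F1 stood at 0.176 and 0.140 for Fggy (3.82 and 3.45 CPM), nearer to DBA/2J. Their Fggy intervals, 3.12 to 4.64 and 2.85 to 4.15 CPM, still lay above that of DBA/2J (1.54 to 2.67). The hybrids stood at 0.312 and 0.422 for Sbsn (4.95 and 5.72 CPM). For AI506816 they stood at 0.628 and 0.580 (4.98 and 5.41 CPM) and for Prss41 at 0.544 and 0.370 (2.77 and 3.30 CPM). For Eps8l1 B6D2F1, at 1.31 CPM, was below both parents and D2B6F1, at 2.17 CPM, just above DBA/2J, and the intervals of both hybrids overlapped that of DBA/2J.

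Capn11 was above both parents in both hybrids. It stood at 7.38 CPM in B6D2F1 (197 reads, interval 6.39 to 8.49) and 3.94 CPM in D2B6F1 (129 reads, interval 3.29 to 4.69), against 3.59 CPM in C57BL/6J (interval 2.89 to 4.41). B6D2F1 was above C57BL/6J beyond counting error, whereas D2B6F1 was not. The reciprocal hybrids differed beyond their counting intervals in Capn11 alone of the 6 genes, and such a difference was found in 11.4% of all genes. That share covers genes of every read depth, and intervals narrow with depth. Whether Capn11 stands apart among genes of like depth was not tested.

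The hybrids and the lines were also compared over libraries with edgeR's quasi-likelihood test, fitted on the whole table. Between the 36 lines and the 4 other libraries 0% of 16198 genes passed a Benjamini-Hochberg adjusted p of 0.05 with edgeR (163 at an unadjusted p under 0.05), and with DESeq2 the count was also 0 (155). The largest fitted differences among the 6 genes were those of Eps8l1, 1.45 ± 0.93 log2 units higher in the lines (SE, edgeR adjusted p = 1.00), and Capn11, 1.37 ± 0.96. Between the 2 F1 libraries and the 38 inbred ones 0% of 16434 genes passed with edgeR (109 at an unadjusted p under 0.05) and 0 with DESeq2 (100). Eps8l1 had the largest fitted difference there too, -1.92 ± 1.36 log2 units in the hybrids (edgeR adjusted p = 1.00). The standard errors of the 6 genes were 0.78 to 1.59 log2 units in these fits, so that a difference of 1 log2 unit lay within 2 SE for each of them. The 6 genes were chosen for a wide spread between the lines, and that spread enters the error of these fits. That none of them was called is therefore no result about them.

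To see which other transcripts placed the lines in the same way, every measured gene was split at its own widest step and the lines on matching sides, or on opposite sides throughout, were counted out of 36. The median gene matched in 20 to 22 lines, depending on the gene it was compared with. For Capn11, which had no wide step, the count was of its 9 highest and 9 lowest lines shared, out of 18, with a median of 6. All counts of this kind rest on the same 36 libraries and carry no test.

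Fggy was matched best by genes of other chromosomes. 1700019G17Rik on chromosome 6 and 1700030C10Rik, Odc1 and Ywhaq on chromosome 12 split all 36 lines as Fggy did, and Kcnf1, also on chromosome 12, did so in 35. Odc1 encodes ornithine decarboxylase, the rate-limiting enzyme of polyamine synthesis, Ywhaq encodes a 14-3-3 protein, and Kcnf1 encodes a subunit of voltage-gated potassium channels. 1700019G17Rik lay at 1.90 to 3.61 CPM in the 15 lines low in Fggy and at 18.4 to 26.8 CPM in the 21 others. Odc1 lay at 15.9 to 21.6 CPM in the former and 30.8 to 40.9 CPM in the latter. 1700030C10Rik lay at 0 to 0.0433 CPM in the former and 0.437 to 3.46 CPM in the latter.

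Of the 17 genes that matched Fggy in at least 30 lines, 9 lay on chromosome 12, which carries 3.65% of all measured genes, and 1 on chromosome 4 (6.14%), the annotated chromosome of Fggy. The 8 nearest measured genes around Fggy on chromosome 4 (Ift74, Tek, Mysm1, Jun, Hook1, Cyp2j12, Cyp2j6 and Cyp2j9) matched it in 18 to 23 lines, close to the median of 20. Hook1, the next gene, ran from 56.1 to 89.2 CPM, and Jun, on the other side, from 28.7 to 59.5 CPM, with no wide step in either. The 5 low lines with countable Fggy stayed inside the low range in 1700019G17Rik and 1700030C10Rik. They had 2.87 to 3.24 CPM of 1700019G17Rik, in the middle and upper part of the low lines' 1.90 to 3.61 CPM. Of 1700030C10Rik all 5 had 0 reads. In the hybrids 1700019G17Rik, at 4.01 and 4.07 CPM, was near the low lines, and C57BL/6J had 18.6 and DBA/2J 6.21 CPM.

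**Figure D3:**
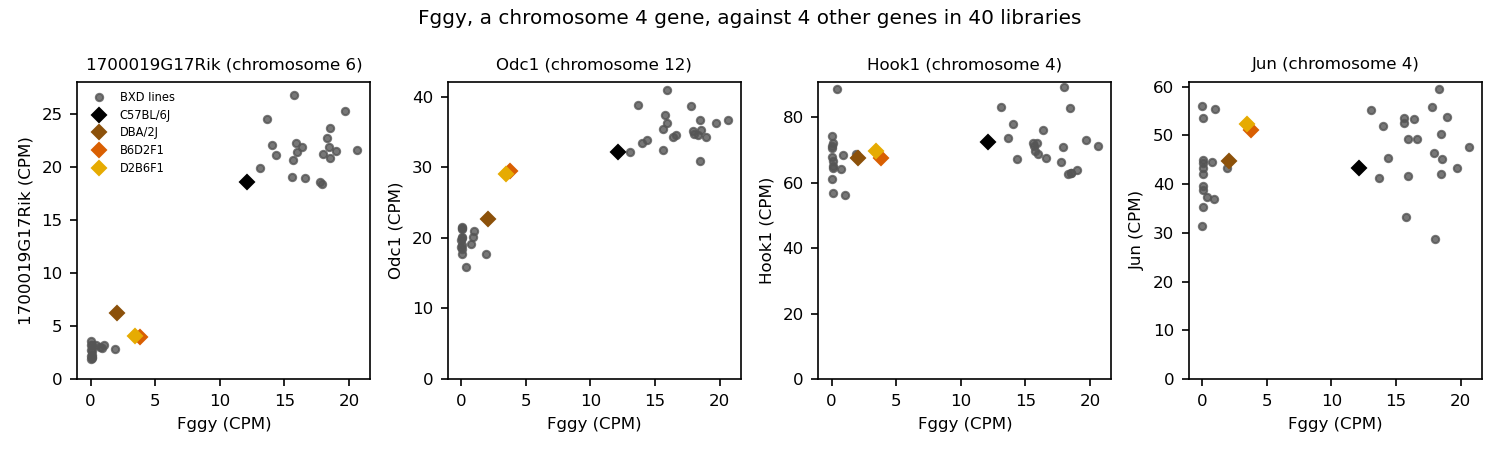
Level of 2 genes that match Fggy and of its 2 nearest measured neighbours (vertical axes, CPM) against the level of Fggy (horizontal axes, CPM) in 40 libraries, with grey points for BXD lines. The lines form 2 clouds in 1700019G17Rik and Odc1, which are annotated on chromosomes 6 and 12, and share 1 range in Hook1 and Jun, which adjoin Fggy on chromosome 4.

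Eps8l1, Sbsn, AI506816 and Prss41 were matched best by genes of their own chromosomes, though not to the same extent. Of the 20 genes most like each, 12 for Eps8l1, 19 for Sbsn, 10 for AI506816 and 20 for Prss41 lay on its own chromosome. Chromosomes 7, 5 and 17 carry 7.50%, 6.27% and 4.90% of all measured genes. The 5 genes most like Eps8l1 all lay on chromosome 7. Oscar, the osteoclast-associated receptor gene, split all 36 lines alike, at 0.0401 to 0.384 CPM in the 13 low lines and 2.74 to 4.87 CPM in the 23 others, a clean step where Eps8l1 itself was graded. Rdh13, a mitochondrial retinol dehydrogenase gene, split all 36 lines in the opposite direction, at 51.9 to 68.6 CPM in the 13 lines low in Eps8l1 and 28.6 to 36.2 CPM in the others. Tmc4 matched in 35 lines, Leng1 in 34 and Sbk3 in 32. Rdh13 and the non-coding D630041G03Rik overlap Eps8l1 in the annotation, and whether the counting used strand is not given in the sources used here, so reads of Eps8l1 and of these genes may not have been told apart. The authors' normalized table held 1.21 times the Eps8l1 reads of the raw table, against 0.992 to 1.00 times for the other 5 genes.

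The 5 genes most like Sbsn were also on chromosome 7. Psenen, which encodes a subunit of gamma-secretase, Hspb6, a small heat shock protein gene, and Gpi1, the glycolytic glucose-6-phosphate isomerase gene, split all 36 lines as Sbsn did. Psenen lay at 0.297 to 1.30 CPM in the 16 low lines and 2.40 to 4.22 CPM in the 20 others, and Hspb6 at 2.75 to 4.62 and 8.29 to 11.2 CPM. Gpi1, at 233 to 326 and 343 to 413 CPM, kept the same split with a step of 0.08 log2 units. Kirrel2, opposite in direction, matched in 35 lines and Nudt19, a coenzyme A hydrolase gene, in 34. Of 23 genes that matched Sbsn in at least 30 lines 21 lay on chromosome 7, which carries 7.50% of all measured genes. Its epidermal neighbour Dmkn, which encodes dermokine, matched in 24 lines only and ran from 1.91 to 4.29 CPM. Gapdhs, which overlaps Sbsn, matched in 22.

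AI506816 was matched by no gene in all 36 lines. Its neighbours 2700038G22Rik, which was lower in the same lines, and Rint1, a vesicle trafficking gene that was higher in them, each matched in 35, and both lie within 4 measured genes of it on chromosome 5. Gsap matched in 32, Abcb8 in 31 and Galnt11 in 30, also on chromosome 5. BXD32 was a mismatched line in all 5 of these genes. It had 0.435 CPM of AI506816, among the low lines, but 4.00 CPM of 2700038G22Rik, among the lines high in that gene (2.95 to 4.19 CPM), and 21.1 CPM of Rint1, at the upper edge of the lines low in that gene (16.9 to 21.1 CPM). BXD32 thus held the low AI506816 level of 1 set beside the 2700038G22Rik level of the other. Its side in Rint1 is less certain, since the Rint1 step was only 0.10 log2 units.

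Prss41 had the most companions. Rnps1, a splicing factor gene of the exon junction complex, Ppil1, a spliceosomal cyclophilin gene, Pkmyt1, a kinase gene of the cell cycle, Zfp40 and Hn1l split all 36 lines, each in the opposite direction and each on chromosome 17. Rnps1 lay at 20.8 to 25.1 CPM in the 10 lines high in Prss41 and at 50.3 to 59.7 CPM in the 26 others, and Ppil1 at 6.26 to 7.62 and 13.6 to 18.5 CPM. Of 67 genes that matched Prss41 in at least 30 lines, 57 lay on chromosome 17, against 4.90% of all measured genes. The related protease genes Prss32 and Prss33, also on chromosome 17 and too low for the count (means of 0.228 and 0.360 CPM), had their 10 highest lines in the same 10 lines as Prss41. These 2 were chosen after their values were seen. The measured genes next to Prss41 on either side, Tceb2 and Prss30, matched it in 22 and 19 lines.

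Capn11 had no close companion. The best counts were 11 of 18 lines, shared by 7 genes, of which the first 5 were Lmcd1 (chromosome 6), Prkab1, the beta-1 subunit gene of AMP-activated kinase (chromosome 5), Agpat5 and Micu3 (chromosome 8, both opposite in direction) and Rpl41 (chromosome 10). Of the 20 genes most like Capn11 none lay on chromosome 17, which carries 4.90% of all measured genes, so a count of 0 is near that share. The 8 nearest measured genes around it, among them Slc29a1 with 8, Hsp90ab1 with 5 and Vegfa with 6, shared 5 to 8 of 18 lines, against the median of 6.

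Among the 48 neighbours of the 6 genes none had a step of 1 log2 unit, which 0.469% of all genes have. Neighbours of AI506816 matched it in 20 to 35 lines (median 26.5) and those of Eps8l1 in 19 to 36 (median 23.5). Those of Sbsn matched it in 19 to 32 (median 23) and those of Prss41 in 19 to 32 (median 24). The medians of all genes were 20, 21, 20 and 22 in the same order. The most matching were Rdh13 for Eps8l1, Haus5 for Sbsn, Rint1 and 2700038G22Rik for AI506816 and Kctd5 for Prss41.

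**Figure D4:**
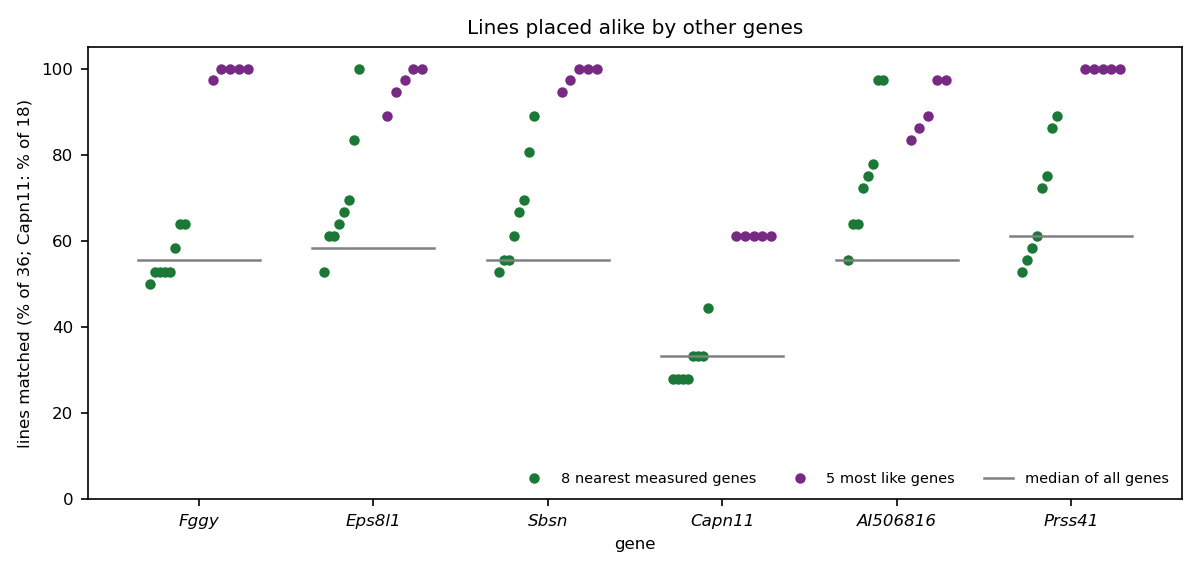
Share of lines matched (percent of 36, for Capn11 percent of 18) by the 8 nearest measured genes (green) and the 5 most like genes (purple) of each gene, with the median of all genes as a grey bar. Some neighbours reach high shares for Eps8l1, Sbsn, AI506816 and Prss41, whereas those of Fggy and Capn11 stay near the median.

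The families of the 5 protein-coding genes were read next, since related genes act in the same process. No other gene of the 5 lists with a mean of at least 1 CPM had a step of 1 log2 unit. Such a step was found in 0.469% of all 14488 genes. None of the lists' genes was called in the 2 edgeR fits, which called 0% of all genes tested. Both counts are near the share of all genes, so they do not set the lists apart. Among 13 sugar kinases and related enzymes the SD over the lines had a median of 0.14 log2 units. The highest by mean, the pentose phosphate enzymes Tkt at 152 to 247 CPM and Taldo1 at 46.4 to 75.9 CPM, had SDs of 0.14 and 0.13, and the most variable, the galactokinase gene Galk1, ran from 4.42 to 10.6 CPM with an SD of 0.30, followed by the ribokinase gene Rbks, at 1.15 to 2.34 CPM with an SD of 0.27. Xylb, the xylulokinase of the same FGGY family as Fggy, ran from 9.51 to 14.9 CPM with an SD of 0.14. The list's median is close to that of all genes, 0.15.

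Among 11 relatives and partners of Eps8l1 the median SD was 0.13. Eps8, the founding member, ran from 61.5 to 95.6 CPM (SD 0.14) and Eps8l2 from 3.64 to 6.70 CPM (SD 0.19), while Eps8l3 had a mean of 0.100 CPM. The most variable partner was Baiap2, which encodes an adaptor of Rac and actin, at 54.1 to 162 CPM (SD 0.25), followed by Actb, the beta-actin gene, at 486 to 908 CPM (SD 0.24). The GTPase gene Rac1, with a mean of 335 CPM, had an SD of 0.09. Since Eps8l1 was chosen for its spread, its distance from this list is no result about the list.

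The epidermal list varied most besides its chosen gene. Of its other genes 6 reached a mean of 1 CPM, with a median SD of 0.31. Evpl, the envoplakin gene of the cornified envelope, ran from 5.60 to 45 CPM (SD 0.90, step 0.76) and Krt10, a suprabasal keratin gene, from 2.92 to 11.1 CPM (SD 0.52, step 0.44). Krt1 ran from 6.58 to 12.9 CPM (SD 0.22), and Krtdap, the keratinocyte gene beside Dmkn, was almost without reads, with 5 in all libraries together.

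The calpain and Prss lists were read in the same way, against the median SD of 0.15 of all genes. Of 10 further calpain genes, with a median SD of 0.16, the highest were Capns1, the small regulatory subunit gene, at 92.3 to 218 CPM (SD 0.31), and Capn2, at 112 to 156 CPM (SD 0.10), and Capn3 had an SD of 0.27. Of 7 further Prss genes above 1 CPM, with a median SD of 0.26, the highest were Prss23 at 5.62 to 11.6 CPM (SD 0.24) and Prss36 at 4.79 to 7.19 CPM (SD 0.16), and the most variable were Prss30 (SD 0.39) and Prss35 (SD 0.30). Below 1 CPM on average, Prss32 ran from 0 to 1.14 CPM and Prss33 from 0 to 1.51 CPM, and their 10 highest lines were those of Prss41, as given above. The list included 18 genes that reached 1 CPM in no BXD line, among them Prss21 and Prss29 with 0 reads throughout.

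**Figure D5:**
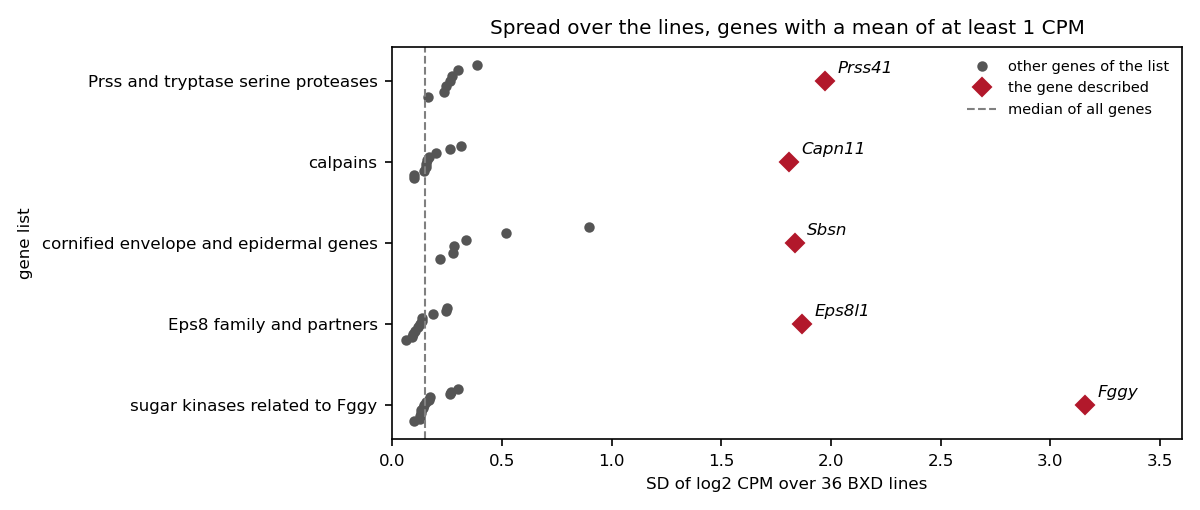
SD of log2 CPM over the 36 lines (horizontal axis) for the 5 protein-coding genes (red diamonds) and the other genes of their lists with a mean of at least 1 CPM (grey points), with the median of all genes as a dashed line. The chosen genes, picked for their spread, lie between 1.81 and 3.16, and of the others Evpl lies farthest right at 0.90.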

How the data were processed

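Total RNA of hypothalamus, pooled from 3 to 6 animals per BXD line, was made into stranded mRNA libraries and sequenced as 100-base single-end reads, per the labels' protocols. TopHat2 2.0.8, HTSeq 0.5.4p3 and DESeq with assembly mm9 are listed per the submitters' processing notes, and their parameters are not given in the sources used here. The mm9 assembly is a C57BL/6J sequence, and the effect of DBA/2J alleles on alignment was not tested. The authors deposited raw read counts for 23955 gene symbols, the basis of all values here, and a normalized signal for 15251 names, counts divided by a size factor per library, used for alternatives only. All sample columns were mapped by strain name.

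CPM used TMM-scaled totals (edgeR 4.0.16, R 4.3.3), and log2 CPM a prior count of 2. Fits used edgeR's quasi-likelihood test with genes kept by filterByExpr and Benjamini-Hochberg adjustment, with DESeq2 1.42.0 as alternative. Fits and step detection were tested on simulated data. Alternatives were other scaling, table, prior count, side and CPM minimums, no filter and each non-BXD library left out. Chromosomes and gene order came from RefSeq on GRCm38.p6, where 99.4% of symbols were found. No coordinates of genes are given, since the files use mm9.

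The members and lists were chosen with earlier results of these data known. Other genes were named by a rule: the 5 most like each gene (ties by the wider step), the 4 measured neighbours on either side, in each family list the 2 highest and the 2 most variable, and in each marker list the highest. Xylb, Eps8, Eps8l2, Eps8l3, Dmkn, Krtdap, Prss21, Prss29, Prss32 and Prss33 were added as relatives of the 6 genes, and the keratinocyte and germ cell markers beside Sbsn, Capn11 and Prss41. The p-values set a difference against the spread between strains, which cannot be separated here from that between animals or libraries.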

Additional observations from a re-analysis of the deposited data

How the results depend on the processing

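Of 204 alternative values, 201 kept their direction and their side of the threshold. Among the 204 were 24 SDs, 30 step widths, 30 counts of lines below a step and 12 counts of like genes. These have no direction that could turn, so the number kept is in part fixed in advance. No alternative moved a line across the widest step of any of the 6 genes: the lines below it were 15 for Fggy, 13 for Eps8l1, 16 for Sbsn, 13 for Capn11, 21 for AI506816 and 26 for Prss41 under each scaling, table, prior count and side minimum tried. The SD over the lines moved most in AI506816, to between 3.09 and 3.63, and the widest step most in Eps8l1, to between 1.05 and 1.40. Without DBA/2J the fitted difference between the lines and the other libraries turned to -0.0084 for Sbsn and 0.17 for AI506816, and over all such omissions it ran from -0.0084 to 0.59 and from -0.61 to 0.17, with neither gene past the threshold in any fit. Leaving out either hybrid gave 0 to 1 genes for the hybrids against the inbred libraries. The 1 gene, Ide, the insulin-degrading enzyme gene, was called without D2B6F1 (log2 difference 0.58, edgeR adjusted p = 0.0236), leaves B6D2F1 as the lone hybrid, assumed to vary like the other strains, and was named after its value was seen. Under the alternatives 4 or 5 of the 5 most like genes of each of the 6 genes remained. No paired analysis was possible because every strain was sequenced once, the labels give no replicate numbers and those assigned here only name the libraries. Depth limits the low sets of Fggy, AI506816 and Prss41, where most lines had a few reads.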
